A study of Macaca mulatta with 16 samples.

Results

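Laminins and integrins were described as a group: the trimeric proteins that build the sheet of matrix around each muscle fibre, and the cell surface receptors that hold cells to this sheet and to other matrix. Members were all probe sets on 2 human array types, U133A and U133B, whose gene symbol in the platform annotation begins with LAMA, LAMB, LAMC, ITGA or ITGB and names a laminin chain or an integrin subunit. The rule used symbols only and no measured value. It found 89 probe sets of 44928, with 70 on U133A and 19 on U133B. Of these, 23 carried the symbol of 1 of 10 laminin genes and 61 the symbol of 1 of 24 integrin genes, which makes 34 genes of 17518 named on the arrays, 11 of them on both array types. The other 5 were listed under several symbols and were counted without a gene name. All 34 gene symbols were found in the rhesus macaque RefSeq gene table (assembly T2T-MMU8v2.0).

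The RNA came from extraocular muscle, the muscles that move the eye, of adult monkeys (Macaca mulatta). There were 4 groups with 2 arrays each on each array type: the orbital layer, which is the outer part of these muscles, the global layer, which is the inner part, whole lateral rectus and whole medial rectus. The layers were cut out with a laser and their RNA was amplified by a T7-based method, per the labels, whereas whole muscle RNA went through the standard Affymetrix protocol. Amplification and tissue therefore cannot be told apart between layers and whole muscle. The labels do not say which arrays or cut regions share an animal, so the p-values cover only the spread among these arrays and may be too small, and 2 arrays a group limit the precision of every value.

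Each laminin is a heterotrimer of an alpha, a beta and a gamma chain, and trimers polymerise into the basement membrane, where nidogens, perlecan, agrin and type IV collagen join them. In skeletal muscle the trimer of LAMA2, LAMB1 and LAMC1 surrounds the fibres, and LAMB2 takes the place of LAMB1 at the neuromuscular synapse. Loss of LAMA2 causes a congenital muscular dystrophy. Each integrin pairs an alpha with a beta subunit: the pair of ITGA7 and ITGB1 is the main laminin-binding integrin of muscle fibres, other alpha subunits bind collagen, fibronectin or other ligands with an RGD motif, and a further set is found on leukocytes.

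The tissue label held on U133A, where 8 of 8 muscle fibre markers, among them the extraocular myosin MYH13, were above the floor on all arrays. One label conflict touches the results: on U133A, the first orbital array is orbital by its title but global by its source name. It was taken as orbital, and values without this array are given below. On U133B, the first global array has a source name that does not tell the layers apart. Signs of RNA quality were examined: for ACTB, the 3′ over 5′ signal ratio was 2.84 to 5.87 on the layer arrays and 0.716 to 1.04 on the whole muscle arrays of U133A, and within the layers it was 5.30 to 5.87 on orbital and 2.84 to 2.88 on global arrays. For GAPDH on U133A the ratios overlapped, at 1.497 to 2.92 on layer and 0.947 to 1.66 on whole muscle arrays, and at 1.73 to 2.00 on orbital and 1.497 to 2.92 on global arrays. On U133B both ratios were higher on layer than on whole muscle arrays without overlap. ACTB was 3.54 to 5.29 against 0.512 to 0.933 there, and GAPDH 2.04 to 4.33 against 1.18 to 1.74. Within the layers of U133B, ACTB was 4.43 to 5.29 on orbital and 3.54 to 3.61 on global arrays, and GAPDH overlapped. The part of these ratios in the results was not tested. Values are intensities on a linear scale, as scaled per array by the authors. They were set to a floor (146.487 on U133A, 218.465 on U133B), and a probe set was tested where its mean log2 value over the arrays compared reached the median of the table (653.942 and 802.702). A member was called where its adjusted p was under 0.05 in limma, with Benjamini-Hochberg adjustment over all probe sets tested. Among members, 45 were above the floor on all 8 arrays and 23 were below it on at least 4.

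The laminin alpha chains were described first. LAMA2, the alpha chain of the muscle fibre basement membrane, had 4 probe sets. The brightest of them, 213519_s_at, read 20234 and 25869 in the orbital layer, 12013 and 19486 in the global layer, 5452 and 6637 in the lateral rectus, and 5404 and 6332 in the medial rectus. Every layer array was above every whole muscle array, the orbital arrays were above the global ones without overlap, and the 2 recti overlapped. A further LAMA2 probe set, 205116_at, read 8618 and 5715 in the orbital layer, 5119.6 and 4268 in the global layer, 1727 and 1765 in the lateral rectus, and 2519 and 1510.3 in the medial rectus. The third, 216840_s_at, read 5848 and 5073 in the orbital layer, 6657 and 4615 in the global layer, 1009.8 and 1195 in the lateral rectus, and 1041 and 1077 in the medial rectus. All 3 probe sets put both layers above both recti, and in the third the orbital and global values overlapped.

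LAMA4, an alpha chain of blood vessel and nerve basement membranes, had 5 probe sets that did not run the same way. In 202202_s_at, the brightest, values were 2100.2 and 2315 in the orbital layer, 2101 and 2376 in the global layer, 1867 and 1459 in the lateral rectus, and 1019 and 1810.1 in the medial rectus. In 216081_at they were 533 and 437 in the orbital layer, 347 and 699.7 in the global layer, 3164 and 3126 in the lateral rectus, and 1539.5 and 3902 in the medial rectus. The layers were thus above whole muscle in the first and below it in the second. LAMA5, an alpha chain of vessels and synapses in mature tissue, was dim: 210150_s_at read 314 and 168 in the orbital layer, 409 and 327 in the global layer, 581 and 342 in the lateral rectus, and 309 and 648 in the medial rectus, under the level required for testing in each comparison. LAMA1, an alpha chain of early embryonic basement membranes, reached the level required for testing on U133B only. It read 1346 and 791 in the orbital layer, 739 and 664 in the global layer, 1623 and 1092 in the lateral rectus, and 913 and 2799.5 in the medial rectus. The orbital arrays were above the global ones, and both recti overlapped the orbital layer. On U133A, where LAMA1 was too dim for the test, it read 105 and 212 in the orbital layer and 768 and 541 in the global layer. The orbital arrays were thus below the global ones there, 1 of them below the floor.

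Among beta and gamma chains, LAMB1 in 201505_at read 6042 and 4629 in the orbital layer, 4070.1 and 3689 in the global layer, 1399.7 and 1590.2 in the lateral rectus, and 2325 and 771 in the medial rectus. The order of groups was orbital, global and then the recti, which overlapped each other. LAMB2, the beta chain of synapses and vessels, read 7032 and 3358 in the orbital layer, 2289 and 3122 in the global layer, 2399 and 1792 in the lateral rectus, and 1605 and 1862 in the medial rectus. The first orbital array, the one with the label conflict, was the highest, and orbital and global values did not overlap. LAMC1, the gamma chain of most laminins, read 6344 and 7916 in the orbital layer, 6384 and 5366 in the global layer, 5349 and 4387 in the lateral rectus, and 6351 and 5401 in the medial rectus in 200771_at. The 4 groups lay close together there. In the second LAMC1 probe set, 200770_s_at, values were 1664 and 990.2 in the orbital layer, 1228 and 1159 in the global layer, 2238 and 2173 in the lateral rectus, and 2544 and 3654 in the medial rectus. Here every layer array was below every whole muscle array. LAMC3, another gamma chain, read 903 and 339 in the orbital layer, 716 and 498 in the global layer, 1655 and 1553 in the lateral rectus, and 1202 and 751 in the medial rectus on U133B and 94.4 and 435 in the orbital layer, 365 and 718 in the global layer, 100.3 and 1159.7 in the lateral rectus, and 936 and 1346 in the medial rectus on U133A, so that one lateral array was near the bottom and the other near the top of the U133A values. LAMB3, a beta chain of epithelial laminin, ranged over 38.9 to 355 in the layers and 659.7 to 1087 in the recti, with 3 of its 8 arrays below the floor.

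Of the laminin-binding integrins, ITGA7, the alpha subunit of muscle fibres, read 6470.3 and 4572 in the orbital layer, 2311 and 5311 in the global layer, 2887 and 2207 in the lateral rectus, and 2183 and 2018 in the medial rectus in 216331_at. The orbital arrays were above both recti, and the global pair was wide enough to overlap the orbital and the lateral pair but lay above the medial one. ITGB1, the beta partner of ITGA7 and of many other alpha subunits, read 10362 and 26843 in the orbital layer, 17130.3 and 19451 in the global layer, 13064 and 10744 in the lateral rectus, and 19362 and 8185 in the medial rectus in 211945_s_at, the brightest of its 5 probe sets. The 2 orbital arrays were the lowest and the highest of the 4 layer arrays, and the 2 medial arrays bracketed the lateral ones. ITGA6, a laminin-binding subunit of vessels, nerve and epithelia, read 1389.9 and 859 in the orbital layer, 2305 and 1003 in the global layer, 2393 and 1857 in the lateral rectus, and 2080.4 and 2663 in the medial rectus, with both layers overlapping each other.

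For integrins that bind other ligands, ITGA5, the fibronectin receptor subunit, read 1636 and 321 in the orbital layer, 873 and 497 in the global layer, 1898 and 2661 in the lateral rectus, and 1656 and 384 in the medial rectus. Its replicates were far apart in the orbital layer and the medial rectus. ITGAV, which pairs with several beta subunits to bind vitronectin and other RGD ligands, read 856 and 1504 in the orbital layer, 684 and 1021 in the global layer, 1235 and 967 in the lateral rectus, and 1486 and 1026 in the medial rectus, and the groups overlapped. ITGA9, which binds tenascin-C and osteopontin, was measured on U133B by 227297_at with 7647 and 11236 in the orbital layer, 3243 and 6832 in the global layer, 253 and 1760.5 in the lateral rectus, and 401 and 623 in the medial rectus. All 4 layer arrays were above all 4 whole muscle arrays, the orbital arrays were above the global ones, and the 2 recti overlapped. The ITGA9 probe set on U133A was dim, at 104 to 659 over the 8 arrays. ITGA8, which binds nephronectin, read 2136 and 1307 in the orbital layer, 2739 and 1251 in the global layer, 459.7 and 1230.2 in the lateral rectus, and 1366 and 474 in the medial rectus in 214265_at on U133A and 4051 and 3208 in the orbital layer, 3423 and 3869.9 in the global layer, 1889 and 2292 in the lateral rectus, and 3612 and 3676 in the medial rectus in 235666_at on U133B.

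**Figure D1:**
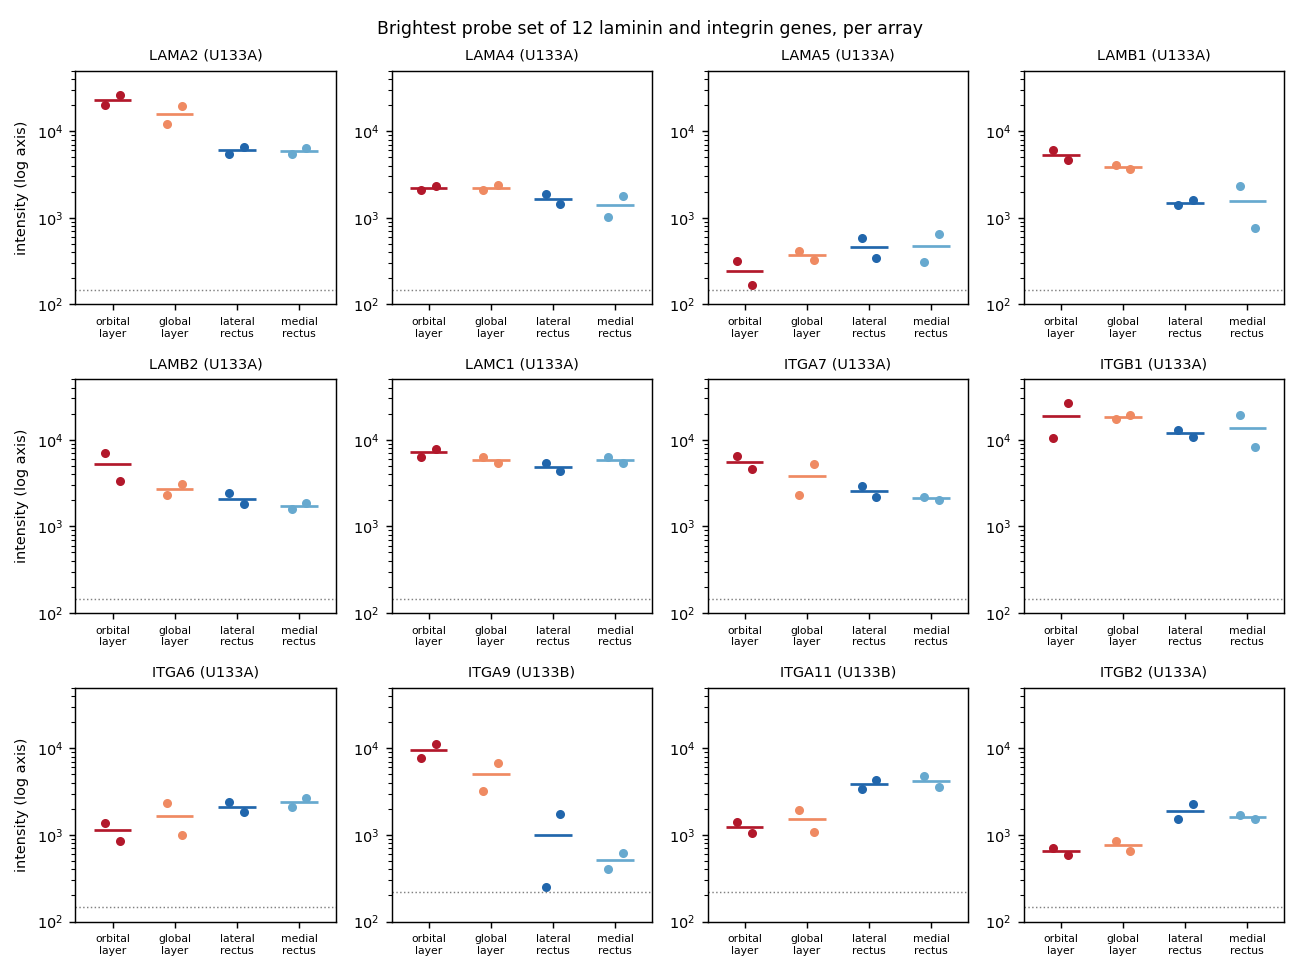
Intensity (log axis) of the brightest probe set of 12 laminin and integrin genes on each array of the orbital layer, global layer, lateral rectus and medial rectus; each point is 1 array, each bar the mean of 2, and the dotted line the floor of the table. All layer arrays of LAMA2, LAMB1 and ITGA9 lie above all whole muscle arrays, and all layer arrays of ITGB2 and ITGA11 lie below them.

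The orbital layer was then compared with the global layer, which asks whether the outer and inner parts of the muscle differ. No laminin or integrin passed the threshold. On U133A, 23 of 70 members were tested and 0 were called, against 0.409% of all probe sets tested. None reached an unadjusted p under 0.05 either, against 9.49% of all. On U133B, 7 of 19 were tested and 0 were called, against 0.021%, and 2 had an unadjusted p under 0.05, against 7.76%. Values lay apart without overlap in 7 of the 23 members on U133A, where this was so for 41.9% of all probe sets, and in 3 of the 7 on U133B, where it was 38.6%.

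Laminins on U133A had a positive difference (orbital minus global) in 7 of 9 tested probe sets; their median log2 difference was 0.28 against -0.04 over all probe sets tested. LAMB2 had the smallest p, with a log2 difference of 0.86 ± 0.38 (SE) and an adjusted p of 0.529 in limma. Without the first orbital array this difference was 0.33. The difference of LAMA2 was 0.59 ± 0.28 in 205116_at and 0.58 ± 0.29 in 213519_s_at, with adjusted p of 0.564 and 0.566 in limma, and 0.29 and 0.76 without that array. Without the first global array, 213519_s_at gave 0.23. The third LAMA2 probe set gave -0.03 ± 0.27. LAMB1 gave 0.45 ± 0.26 in its brightest probe set, LAMC1 0.28 ± 0.25 and LAMA4 -0.02 ± 0.25, with adjusted p of 0.618, 0.747 and 0.989 in limma. On U133B, LAMA1 gave 0.56 ± 0.57, whereas its dim, untested probe set on U133A ran the other way.

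Integrins on U133A were positive in 6 and negative in 8 of 14 tested probe sets, with a median of -0.14. The muscle fibre subunit ITGA7 had a difference of 0.63 ± 0.40 and ITGB1 of -0.13 ± 0.41. ITGB1 turned to 0.56 without the first orbital array, and ITGA7 was 0.38. Without the first global array ITGA7 was 0.034, and without the second 1.24. ITGA6 gave -0.48 ± 0.44, ITGAV 0.44 ± 0.38 and ITGA5 0.14 ± 0.71. ITGAV was 0.035 without the second and 0.85 without the first orbital array. Of integrins found on leukocytes, 4 of 4 tested probe sets were negative, 3 of them without overlap, where 41.9% of all probe sets did not overlap. ITGAM gave 2 of these 3. ITGAE, which pairs with ITGB7 and binds E-cadherin, read 840.03 and 1147 in the orbital and 1354 and 1488 in the global layer, a difference of -0.53 ± 0.30 with an adjusted p of 0.605 in limma. ITGAM, the alpha subunit of the complement receptor of myeloid cells, gave -0.55 ± 0.34 in 205785_at and -0.31 ± 0.35 in 205786_s_at, and ITGB2, the beta subunit shared by leukocyte integrins, -0.23 ± 0.36. Other leukocyte markers ran the other way: 4 of 10 were tested and all 4 were positive, none of them called, and the summed level of the 9 on the array was 5684 to 5769.6 in the orbital and 3944 to 4619 in the global layer. CD14 and PTPRC were each below the floor on 1 global array, and CD3D and S100A9 on 1 array of each layer. The part of these markers in the integrin values was not tested. In bulk tissue RNA, fewer cells of a type and less RNA per cell cannot be told apart.

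On U133B, the ITGA9 difference was 0.98 ± 0.40, a 1.97-fold higher level in the orbital layer that did not pass (adjusted p = 0.633 in limma). It was 0.44 without the first and 1.52 without the second global array. In 226535_at, listed under several symbols, the orbital arrays read 14883 and 9423 and the global arrays 20901 and 18271, a difference of -0.72 ± 0.29 with an adjusted p of 0.633 in limma. These are the 2 members with an unadjusted p under 0.05, and the arrays did not overlap in either. ITGB8, a partner of ITGAV, gave -0.50 ± 0.58, the collagen receptor subunit ITGA11 -0.26 ± 0.44 and ITGA8 -0.01 ± 0.29.

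The medial rectus, which turns the eye inward, was compared with the lateral rectus, which turns it outward. No member passed here either, and neither did any other probe set. On U133A, 34 members were tested and 0 were called, against 0% of all probe sets, and 2 had an unadjusted p under 0.05, against 2.8% of all. On U133B, 9 were tested and 0 were called, against 0%, and 0 had an unadjusted p under 0.05, against 3.43%. Arrays did not overlap in 10 of 34 members on U133A, against 28.6% of all, and in 4 of 9 on U133B, against 32.1%. The limma adjusted p was at least 0.999 for all members on U133A and at least 0.991 on U133B.

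ITGB5, a partner of ITGAV that binds vitronectin, had the smallest p. In 214020_x_at the 2 medial arrays read 2178 and 3254 and the 2 lateral arrays 1168 and 1618, a log2 difference (medial minus lateral) of 0.95 ± 0.34. The brightest ITGB5 probe set, 201125_s_at, differed in sign, at -0.51 ± 0.35, and the third tested, 201124_at, gave 0.40 ± 0.32. ITGA5 gave -1.49 ± 0.63, with 1 medial array close to the lower lateral one and the other far below it. It was -0.44 without the second medial array and -2.55 without the first. ITGA8 on U133B was higher on both medial arrays in 235666_at, with 0.81 ± 0.37, and 239092_at gave 1.07 ± 0.82. Differences of laminins on U133A were positive in 4 and negative in 8 of 12 tested. The gamma chains made up 3 of the 4 positive ones, with 0.27 ± 0.23 and 0.47 ± 0.29 for LAMC1 and 1.45 ± 0.96 for LAMC3. On U133B, LAMC3 was -0.76 ± 0.62, the opposite sign. ITGB8 on U133B gave 0.59 ± 0.63. For the other tested genes of the fibre set, differences were -0.04 ± 0.23 for LAMA2, -0.16 ± 0.51 for LAMB1, -0.26 ± 0.31 for LAMB2, -0.28 ± 0.39 for LAMA4, -0.27 ± 0.28 for ITGA7, 0.09 ± 0.37 for ITGB1, 0.16 ± 0.30 for ITGA6 and 0.18 ± 0.40 for ITGAV. All of these were smaller than their errors, whereas those of LAMC1 and ITGA5, also of this set, were larger.

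**Figure D2:**
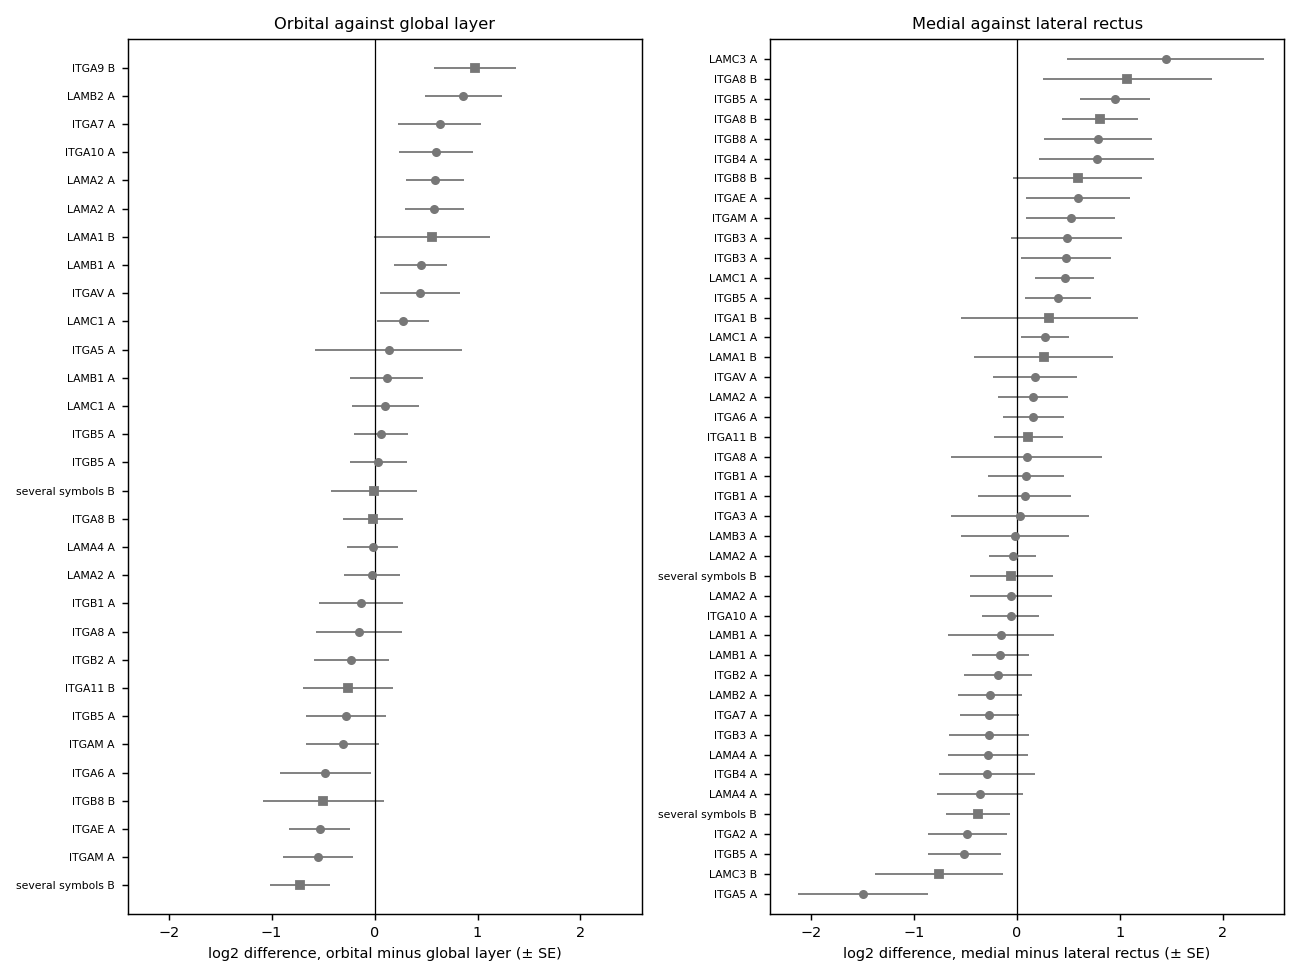
Log2 differences of each tested member, orbital minus global layer on the left and medial minus lateral rectus on the right, sorted by size; circles (A) are U133A and squares (B) U133B, points are limma estimates and bars 1 SE. No member passed the threshold in either comparison, and most bars reach or come close to 0.

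Microdissected layers were compared with whole muscle over 4 arrays a side. LAMA2, in 3 of 3 tested probe sets, LAMB1, in 1 of 2, LAMB2 and the muscle fibre subunit ITGA7 were higher in the layers, along with ITGA9, which had the largest difference of all members tested. Their partners did not pass with them: LAMC1 was lower in 1 of 2 tested probe sets, and ITGB1 was called in neither of its 2 tested ones. Collagen-binding integrin subunits, the leukocyte subunit ITGB2 and the platelet subunit ITGB3 were lower. Of 34 genes, 23 had a tested probe set. In 15 of them at least 1 probe set was called, 8 genes with a higher and 9 with a lower one, since LAMA4 and ITGB5 had both. Amplification differed between the sides and cannot be told apart from tissue in any of these values.

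On U133A, 17 of 27 tested members were called, 9 higher and 8 lower in the layers. Across all probe sets 48.7% were called, 18.6% higher and 30.1% lower. On U133B, 4 of 8 were called, 2 higher and 2 lower, against 42.8% of all, 20.5% higher and 22.3% lower. The median log2 difference of members on U133A was -0.21 and that of all probe sets -0.18. Quantile normalization moved the median of all probe sets to 0.00 on U133A and from -0.21 to -0.04 on U133B, and the share of calls that were higher from 38.3% to 50.4% and from 47.8% to 55.7%. With it, 9 members were called higher and 6 lower on U133A, where 39.1% of all probe sets were called, 19.7% higher and 19.4% lower. On U133B, 1 member was then higher and 2 lower, against 31.4% of all, 17.5% higher and 13.9% lower. Arrays did not overlap in 13 of the 27 members, against 43.9% of all. On U133A, laminins were called higher in 6 and lower in 2 of 10 tested probe sets, and integrins higher in 3 and lower in 6 of 17. The filter takes the mean of both sides, so a member that is dim on one side can be tested through the other; among called members this holds for LAMA4 in 216081_at, ITGA2 and ITGB3, whose mean log2 values in the layers were below the filter, and for ITGA9, whose whole muscle value was. Among members not called, it holds for LAMC3 on U133B and for a further probe set each of ITGB3 and ITGB1, which were dim in the layers. Of the marker and partner genes named below as called, MYH11 on U133A and BCAR1 and FBN1 on U133B had whole muscle means below the filter. AGRN on U133A and DCN on U133B had layer means below it.

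LAMA2, LAMB1 and LAMB2 each rose in the layers in at least 1 probe set. In 213519_s_at, layer arrays of LAMA2 averaged 19400.2 ± 5689.7 (SD, n = 4) and whole muscle arrays 5956 ± 623, a log2 difference of 1.66 ± 0.21 (adjusted p = 1.6e-04 in limma). The other two were 5.09-fold higher in 216840_s_at (5548 ± 897 against 1081 ± 81.2, log2 difference 2.35 ± 0.18, adjusted p = 9.3e-06 in limma) and 3.10-fold in 205116_at. The fourth LAMA2 probe set, 216839_at, was too dim for the test, at 46.7 to 265 in the layers and 264 to 484 in whole muscle, so its values ran the other way. LAMB1 in 201505_at was 3.20-fold higher, with 6042, 4629, 4070.1 and 3689 on the layer and 1399.7, 1590.2, 2325 and 771 on the whole muscle arrays (log2 difference 1.68 ± 0.30, adjusted p = 9.7e-04 in limma). In 211651_s_at, LAMB1 did not differ past the threshold, at -0.07 ± 0.23. LAMB2 was 1.90-fold higher (0.93 ± 0.30, adjusted p = 0.0225 in limma). Without the first orbital array the difference was 0.61 and passed; without the first medial array its adjusted p was 0.0576 in limma. Without the filter it was 0.0777 in limma, with 0.00726 to 0.0777 over all alternatives.

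The gamma chain LAMC1, which pairs with these chains, did not follow them. In 200771_at, layer arrays averaged 6502 ± 1054 and whole muscle arrays 5372 ± 802 (log2 difference 0.27 ± 0.18, adjusted p = 0.217 in limma). In 200770_s_at it was 2.10-fold lower, at -1.07 ± 0.23 (adjusted p = 0.00293 in limma). LAMA4 was called in both directions: 202202_s_at was 1.48-fold higher (0.57 ± 0.22, adjusted p = 0.0474 in limma) and 216081_at was 5.69-fold lower (-2.51 ± 0.32, adjusted p = 1.5e-04 in limma). The higher call was lost under 9 alternatives, with adjusted p of 0.0144 to 0.128 over all of them. The arrays it was lost without were both orbital, both global, the second lateral and the first medial array. The lower call held under all of its alternatives. LAMC3 and LAMA1 on U133B gave -1.10 ± 0.47 and -0.78 ± 0.44, with adjusted p of 0.0741 and 0.161 in limma. LAMC3 passed without the second medial array, at an adjusted p of 0.0464 in limma, in a range of 0.0378 to 0.369.

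The laminin-binding integrins split. ITGA7 averaged 4666 ± 1754 on layer arrays against 2324 ± 385 on whole muscle arrays, 1.90-fold higher (log2 difference 0.92 ± 0.28, adjusted p = 0.0181 in limma). Without the first orbital array, whose labels conflict, the difference was 0.73 and its adjusted p 0.0541 in limma. Without the filter its adjusted p was 0.0653 in limma, in a range of 7.2e-04 to 0.0653. ITGA6 was 1.73-fold lower (-0.79 ± 0.29, adjusted p = 0.0391 in limma), a call lost under 8 alternatives (range 0.00359 to 0.177), among them leaving out either orbital array, either medial array, the second global or the first lateral array. ITGB1, their common partner, was 18447 ± 6797 and 12839 ± 4783, a difference of 0.51 ± 0.30 that did not pass (adjusted p = 0.174 in limma). It was -0.02 after quantile normalization, and without the first orbital array it was 0.77 and passed (adjusted p = 0.0395 in limma, range 0.0395 to 0.956).

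Collagen-binding alpha subunits were lower in the layers in 3 of 3 tested probe sets on the 2 array types. ITGA11, which is found on fibroblasts, was 1413, 1048, 1955 and 1083 on the layer and 3420.2, 4246, 4780.3 and 3537 on the whole muscle arrays, 2.98-fold lower (log2 difference -1.57 ± 0.28, adjusted p = 0.00102 in limma). ITGA2, the collagen receptor subunit of platelets and epithelia, was 676, 378, 769.6 and 418 and 2114, 1483, 995 and 1616, 2.80-fold lower (-1.48 ± 0.33). ITGA10, known from cartilage, was 1949.5, 1265, 1344 and 804 and 2744, 2509.9, 2892 and 2199, 2.01-fold lower (-1.01 ± 0.25). In none of the 3 did the layers reach the lowest whole muscle array. After quantile normalization the difference of ITGA2 was -0.93. Its U133B probe set, too dim for the test, overlapped between the sides, at 125 to 954 in the layers and 117 to 903 in whole muscle. The adjusted p in limma was 0.00322 for ITGA2 and 0.00646 for ITGA10. Fibroblast markers did not move as one on U133A: of 6 tested, PDGFRA was called higher at 1.08 ± 0.18 and COL1A1 lower at -1.57 ± 0.31, and the summed level of the 6 was 193232 to 260137 on layer and 206442 to 268016 on whole muscle arrays. On U133B, the array type that measured ITGA11, 2 of 4 tested were called higher, COL1A2 at 1.62 ± 0.41 and COL3A1 at 2.36 ± 0.26, and DCN lower at -1.68 ± 0.36. Their summed level there was 12825 to 18302 on layer and 6401 to 7727 on whole muscle arrays, the opposite direction to ITGA11. Their part in the ITGA11 value was not tested.

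ITGA9 on U133B was 11.4-fold higher in the layers (log2 difference 3.52 ± 0.54, adjusted p = 4.0e-04 in limma), from 759 ± 685 in whole muscle to 7239 ± 3280.2. The ITGA9 probe set on U133A, too dim for the test, did not show this, at 125 to 402 in the layers and 104 to 659 in whole muscle. ITGA8 on U133A was 2.26-fold higher (1.18 ± 0.41, adjusted p = 0.0307 in limma). On U133B its brightest probe set gave 0.40 ± 0.26, which did not pass. The U133A call was lost without the first orbital, the first global, the first lateral or the second medial array and without the filter, with adjusted p of 0.0100 to 0.104 over all alternatives in limma. Of 6 pericyte and smooth muscle markers tested on U133A, 3 were called higher in the layers, MYH11 at 2.40 ± 0.31, ACTA2 at 0.82 ± 0.20 and RGS5 at 0.65 ± 0.20, and NOTCH3 was called lower at -1.10 ± 0.23. Their summed level, to which RGS5 gave the most, was 35366 to 39631 on layer and 17452 to 29388 on whole muscle arrays. CNN1 was below the floor on 2 of the 8 arrays. On U133B, where ITGA9 was measured, 1 was tested, TAGLN, which was called lower at -0.91 ± 0.23. Their part in the ITGA8 and ITGA9 values was not tested. ITGA5 gave -0.95 ± 0.60 and ITGAV -0.25 ± 0.28, which was 0.23 after quantile normalization. ITGA5 passed without the second medial array, at -1.55 (adjusted p = 0.0210 in limma, range 0.0210 to 0.577).

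ITGB2 fell in the layers, from 1511, 2248, 1706 and 1542 on the whole muscle arrays to 705, 582, 850.1 and 659.7, 2.50-fold lower (log2 difference -1.32 ± 0.23, adjusted p = 8.7e-04 in limma). The other leukocyte subunits tested gave -0.63 ± 0.30 for ITGAM and 0.20 ± 0.31 for ITGAE and did not pass. The summed level of 9 leukocyte markers was 3944 to 5769.6 in the layers, 9872 to 11615 in the lateral and 5427 to 5476 in the medial rectus. The medial values lie within the range of the layers. Only 3 of the 9 leukocyte markers were tested, and 0 were called. ITGB2 overlapped between the medial and the lateral rectus, and its difference from the layers was -0.81 after quantile normalization. CD3D, S100A9 and CD14 were below the floor on some layer arrays. The part of leukocyte markers in the ITGB2 value was not tested.

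Among other beta subunits, ITGB3, which forms the platelet fibrinogen receptor with ITGA2B and also pairs with ITGAV, was 675, 405, 803 and 409 on the layer and 1605, 2185, 2135 and 1128 on the whole muscle arrays in 204626_s_at, 3.11-fold lower (log2 difference -1.64 ± 0.32, adjusted p = 0.00157 in limma). A second ITGB3 probe set, 204628_s_at, gave -0.77 ± 0.34 and did not pass. Platelet markers had a summed level of 1186 to 1867 in the layers and 3851 to 4939 in whole muscle, and 1 of 1 tested, GP1BA, was called lower; GP9 was below the floor on all layer arrays. Their part in the ITGB3 value was not tested. ITGB5 was higher in 201125_s_at (2.12-fold, 1.08 ± 0.24, adjusted p = 0.00321 in limma), lower in 201124_at (1.60-fold, -0.68 ± 0.21, adjusted p = 0.0189 in limma) and did not differ past the threshold in 214020_x_at (-0.21 ± 0.33). In 201124_at, the lateral arrays read 2761 and 1671, the second far below the other whole muscle arrays. The call was lost without the first medial array (adjusted p = 0.0541 in limma) and after quantile normalization (-0.44, adjusted p = 0.140 in limma, range over all alternatives 0.00448 to 0.140). Of the U133B probe sets listed under several symbols, 226535_at was higher at 1.05 ± 0.26, which fell below the threshold after quantile normalization at 0.26 (adjusted p = 0.461 in limma), and 239517_at lower at -1.36 ± 0.28.

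**Figure D3:**
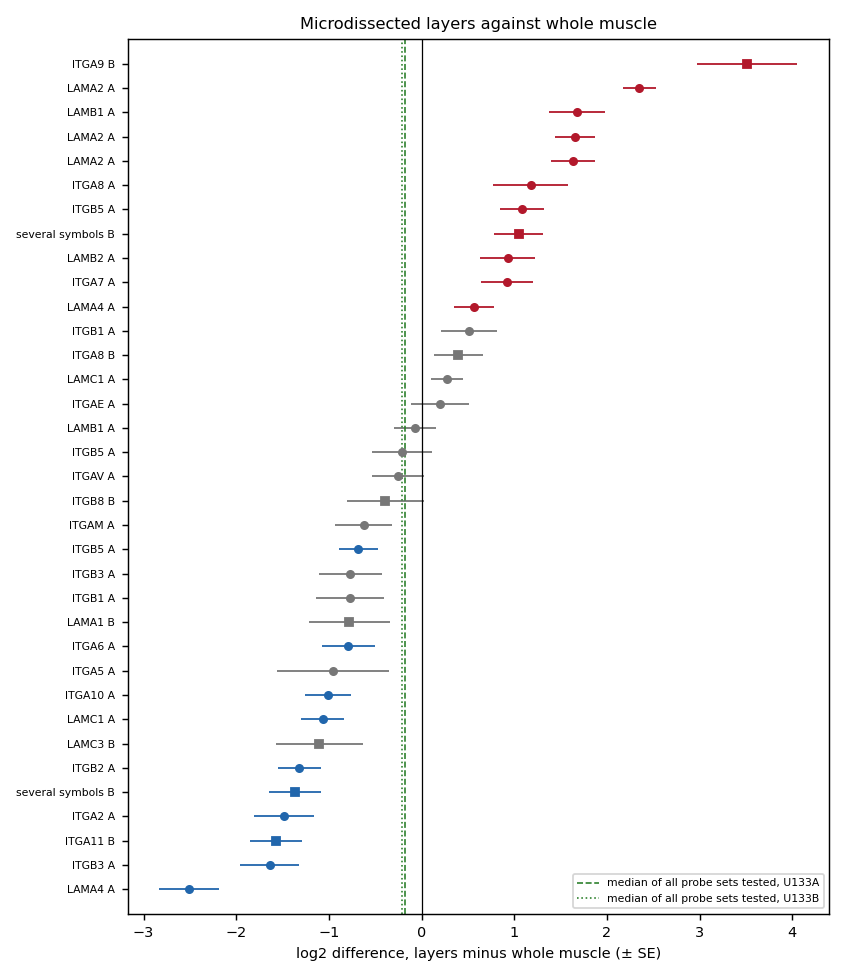
Log2 differences of each tested member, layers minus whole muscle, sorted by size; circles are U133A and squares U133B, bars are 1 SE, red marks members called higher and blue members called lower, and the green lines give the median of all probe sets tested. ITGA9 (3.52) and LAMA2 stand at the top, LAMA4 in 216081_at (-2.51) at the bottom.

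Several genes were read by more than 1 tested probe set, which checks a value within the same RNA. In the comparison of layers with whole muscle, 8 genes had 2 or more tested probe sets, and in 5 of them the signs were mixed. LAMA2 had 3 of 3 in one direction. LAMA4, LAMB1, LAMC1, ITGB1 and ITGB5 were mixed on U133A. Without the filter, 19 of 70 members on U133A were called, 5 higher and 14 lower, where 29.6% of all probe sets were called, 8.67% higher and 20.9% lower. Of these, 12 were also called with the filter. The 5 whose call was lost were LAMB2, ITGA7, ITGA8, LAMA4 in 202202_s_at and ITGA6, the first 4 of them among the 9 higher calls. The 7 others called, which the filter had left out, were all lower in the layers. They were LAMB3, LAMB4, 2 probe sets of ITGB4, the beta partner of ITGA6 in epithelia, ITGAX, and the further probe sets of LAMA2 and ITGB3.

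**Figure D4:**
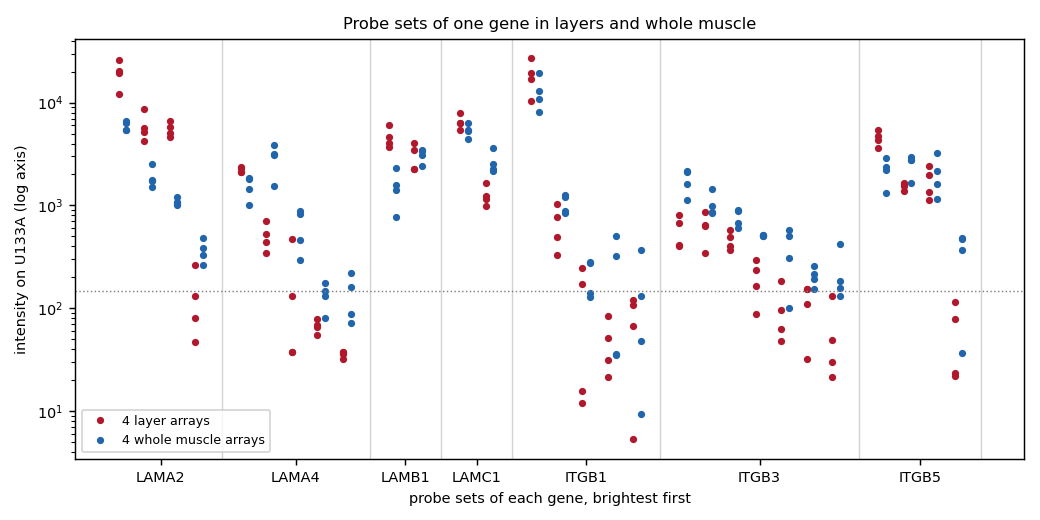
Intensity on U133A (log axis) of every probe set of 7 genes on the 4 layer arrays (red) and the 4 whole muscle arrays (blue), brightest probe set of each gene first; the dotted line is the floor. In LAMA2 the 3 brighter probe sets have the layers above whole muscle and the dimmest has them below, and LAMA4, ITGB1 and ITGB5 likewise change sides from one probe set to the next.

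The remaining members were dim. LAMA5, LAMB4, ITGA2B, ITGA4, ITGAL, ITGAX and ITGB7 were tested in no comparison. ITGAX, a myeloid subunit, was 64.6 to 139 in the layers and 203 to 244 in the recti. ITGA2B, the platelet partner of ITGB3, was 129.7 to 963 in its brightest probe set, and ITGA4, a lymphocyte subunit, 11.8 to 162 on U133A and 201 to 1800.2 on U133B. ITGAL was 29.1 to 214 and ITGB7 84.2 to 438. These ranges reach below the floor, where values have no order. LAMB4 was 174 to 311 in the layers and 335 to 967 in the recti in 216622_at. ITGA1, a collagen receptor subunit, ITGA3, a laminin receptor subunit of epithelia, ITGB4 and LAMB3 were tested between the recti alone, where ITGA3 gave 0.03 ± 0.67 and ITGA1 on U133B 0.32 ± 0.86. ITGA1 read 156 and 520.1 in the orbital layer, 437 and 349 in the global layer, 2127 and 430.3 in the lateral rectus, and 1168 and 1216 in the medial rectus there, and 1 lateral array was higher than all others.

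Partners of the members in the basement membrane and at the adhesion site were taken from lists by function. Of the basement membrane partners and other laminin receptors, 11 were tested on U133A between layers and whole muscle, 3 higher and 5 lower. Among all probe sets there, 18.6% were called higher and 30.1% lower. BCAM, a laminin receptor that binds LAMA5, had 1106 ± 512 against 4521 ± 806 (-2.14 ± 0.31). Agrin (AGRN) and nidogen 1 (NID1), which bind the LAMC1 chain, gave -1.35 ± 0.29 and -1.16 ± 0.23. The type IV collagen chains COL4A1 and COL4A5 were higher, at 0.72 ± 0.14 and 0.62 ± 0.18, as was SPARC at 0.69 ± 0.14, whereas COL4A6 and COL15A1 were lower at -0.78 ± 0.23 and -0.73 ± 0.26. Quantile normalization brought COL4A1 to 0.14, SPARC to 0.11, COL4A6 to -0.28, AGRN to -0.81 and NID1 to -0.76. On U133B, 2 of 2 tested were higher, against 20.5% of all probe sets. They were the laminin-related NTN4 at 1.62 ± 0.28 and COL4A4 at 2.14 ± 0.58. Whole muscle arrays of COL4A4 were far apart, at 132 to 2112, with 1 below the floor. On U133A, COL4A4 was below the floor on all 8 arrays. Between the layers no gene of this list was called, on U133A 0 of 10 and on U133B 0 of 2. NTN4 had 10059.6 ± 1322 against 5129.8 ± 188 in orbital against global layer (0.97 ± 0.26, adjusted p = 0.429 in limma).

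Between layers and whole muscle, 18.6% of all probe sets were called higher and 30.1% lower on U133A, and 20.5% and 22.3% on U133B. Proteins that link integrins to actin and signalling were counted in 1 list with the membrane proteins CD9, CD47, CD81 and CD151. Genes of this list were called higher in 7 and lower in 5 of 17 tested on U133A, and higher in 1 and lower in 2 of 5 on U133B. Those higher included ITGB1BP1, which binds the tail of ITGB1, at 1.33 ± 0.17, the focal adhesion kinase PTK2 at 1.21 ± 0.20, the kindlin FERMT2 at 0.88 ± 0.16 and, on U133B, the adaptor BCAR1 at 2.44 ± 0.42. Those lower included talin (TLN1) at -1.33 ± 0.25, PARVB at -1.19 ± 0.21 and ZYX at -0.94 ± 0.23. FERMT2 was 0.45 and TLN1 -0.86 after quantile normalization. On U133B, ITGB1BP1 ran the other way, at 105 to 427 on layer and 667 to 983 on whole muscle arrays, with 3 arrays below the floor. PTK2, TLN1 and PARVB overlapped between layers and whole muscle on U133B. Between orbital and global layer 0 of 17 and 0 of 5 were called. CD9, a tetraspanin that binds integrins, came nearest in size on U133A, at 1.14 ± 0.26 (adjusted p = 0.196 in limma). On U133B, CD9 overlapped between the layers, with 4247 and 4108 in the orbital and 4565 and 3614 in the global layer.

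Of integrin ligands, 2 of 5 tested on U133A were higher in the layers, FBN1 at 2.34 ± 0.18 and FN1, the ligand of ITGA5, at 0.65 ± 0.20, and 2 lower, THBS1 and FGA. FN1 was 0.12 after quantile normalization. On U133B, FBN1 was higher and FGA lower, 2 of 2 tested. Of all probe sets, 48.7% were called on U133A and 42.8% on U133B in this comparison. Osteopontin (SPP1), a ligand of ITGA9 and ITGAV, was the only gene of these lists called between the layers: 1 of 6 tested on U133A, with 239.5 ± 216 against 2506 ± 546 in orbital against global layer, a log2 difference of -3.37 ± 0.50 (adjusted p = 0.0417 in limma). The orbital arrays read 392 and 86.6, so that one of them was below the floor, and the global arrays 2892 and 2119.7. The mean log2 value of the orbital arrays was below the filter, so SPP1 was tested only through the global layer. None of the 3 lists had a call between medial and lateral rectus.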

How the data were processed

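RNA of the orbital layer, global layer, lateral rectus and medial rectus was hybridised to U133A and U133B arrays, 2 arrays a group and array type, 16 in all. The deposited tables hold 1 linear intensity per probe set and array, as scaled by the authors: every array has a mean of 1500.2 to 1500.7 once the top and bottom 2% of values are trimmed. How probes were summarised is not given in the sources used here, and the files hold no detection call. Probes are of human sequence, so a level also depends on how well the monkey transcript matches them, and levels of different probe sets were not compared.

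Arrays were grouped by title. Replicate numbers come from the titles, or from the order of deposit for 4 of the 8 rectus arrays. Each array was set to one trimmed mean. The pooled 20th percentile served as the floor, log2 was taken, and probe sets were tested whose mean log2 value over the arrays compared reached the pooled 50th percentile. Control probe sets, 68 in each table, were not tested. Both tables were fitted whole and separately with limma 3.58.1 in R 4.3.3 (2 groups, variances with an intensity trend, two-sided, Benjamini-Hochberg over all probe sets tested, adjusted p under 0.05), after limma had been tested on simulated data. A difference is on the floored log2 scale and is understated for dim probe sets. Tables were made with Python 3.11.15 and pandas 2.3.3, figures with matplotlib 3.10.9.

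The members, gene lists and tests were chosen with earlier results of these data known. Values are named for 11 genes of the fibre basement membrane and its receptors, for members past the threshold and for the 4 with the smallest p of a comparison and table. A gene with several probe sets is described by its brightest one, with others where they differ, and list genes by their brightest probe set. The remaining members were added by range. Symbols come from the platform annotation, in which 19071 probe sets of U133A had 1 symbol, 1043 several and 2169 none, and 15432, 554 and 6659 on U133B. As alternatives, quantile normalization was run, the floor was set at the 5th or 40th percentile, the filter was dropped or set at the 75th percentile, and fits were made with no intensity trend, all 4 groups in one fit, the replicate number of the layer arrays as a term, and each array left out in turn.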

Additional observations from a re-analysis of the deposited data

Results flagged for a closer look

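Among 56 groups of 4 arrays of named members examined for an array far from the others, 1 stood out; chance gives about 1 in 20 groups. In ITGB5 (201124_at) on the whole muscle arrays, the second lateral rectus array read 1671.02, whereas the other 3 read 2746.14 to 2930.64. The gap was 0.884 of the range of the 4 arrays, above Dixon's 95% critical value for 4 samples.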

How the results depend on the processing

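Between the layers and between the recti, the count of called members was 0 under every alternative run, with each array left out included. With the replicate block, 0 members were called between the layers on U133A and 0 on U133B, where calls over all probe sets went from 39 to 92 and from 2 to 26. Deviations of same-numbered layer arrays correlated at 0.256 and 0.132, but nothing says that a number marks an animal, so the pairing is not taken as given. For layers against whole muscle, 17 members were called on U133A. The count was 11 with the filter at the 75th percentile, where 15 members were left to test, and between 13 and 16 with each array left out, the lowest without the first medial array. On U133B it was between 4 and 5 with each array left out. Signs turned only in differences that were not called; the cause was not tested. With each array left out, orbital minus global ran from -0.27 to 1.31 for ITGA5, -0.11 to 0.069 for LAMA4, -0.82 to 0.56 for ITGB1, -1.08 to 0.12 for ITGA6 and -0.68 to 0.17 for ITGA11. Medial minus lateral ran from -0.95 to 0.64 for LAMB1, -0.70 to 0.13 for LAMA4, -0.091 to 0.44 for ITGAV, -0.53 to 0.71 for ITGB1, -0.18 to 0.10 for LAMA2 and -0.024 to 0.34 for ITGA6, and LAMC3 on U133A was -0.047 without the first lateral array, the only one whose absence left it tested. After quantile normalization, LAMA2 was 0.013 in medial minus lateral, and ITGAV 0.23 and ITGB1 -0.024 in layers minus whole muscle. When an array was left out between 2 pairs, the lone array was taken to vary like the other group. The intensity files give no detection call, so signal near the floor cannot be split from background here.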
